A study of Mus musculus with 9 samples.

Results

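The 9 genes described here encode regulators of chromatin and transcription whose loss-of-function variants are linked to autism and intellectual disability: *Chd8*, *Chd2*, *Adnp*, *Arid1b*, *Ash1l*, *Kmt2a*, *Pogz*, *Setd5* and *Dyrk1a*. They were chosen by symbol and not by a rule on their values, although earlier results of these data were known. All 9 were found among the 15464 genes of the table, and all 9 were among the 14239 genes that passed the filter on low values (10 or more normalized counts in 3 or more libraries). *SHANK3* is itself an autism gene, and its product is a scaffold of the excitatory synapse. The comparison asks whether the mRNA levels of autism-linked nuclear regulators differ when the synaptic scaffold is reduced or lost.

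Striatal RNA was sequenced from 9 male mice on a C57BL/6J background, 10 to 12 weeks old, with 1 library per mouse. There were 3 wild-type (WT) mice with 2 intact *Shank3* alleles, 3 heterozygous (HET) mice with 1, and 3 knock-out (KO) mice with 0. The mutant allele is *Shank3B*, in which a block of internal exons is targeted in every cell of the body, and the other exons can still be transcribed. The whole-gene count of *Shank3* therefore does not check the genotype labels, and it was 6043 to 8812 in WT, 7098 to 8050 in HET and 10237 to 10798 in KO.

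Chromatin regulators of this kind act at promoters and enhancers of many genes at a time, and most of them are needed in a full dose, since loss of a single copy is enough to cause a disorder in people. CHD8 and CHD2 are ATP-driven remodellers that slide or exchange nucleosomes. ARID1B is a DNA-binding subunit of the BAF remodelling complex. KMT2A and ASH1L are SET-domain enzymes that methylate histone H3, at lysine 4 (H3K4) and lysine 36 (H3K36) respectively, marks found at active genes. ADNP and POGZ are zinc-finger proteins that bind the heterochromatin protein HP1, SETD5 is a SET-domain protein found with the NCoR-HDAC3 corepressor, and DYRK1A is a protein kinase with many substrates in the nucleus and cytoplasm rather than a chromatin protein in the strict sense.

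The values are normalized counts, which are estimated reads per gene divided by a size factor of the library, so that libraries can be compared gene by gene. Each library summed to 30830020 to 33790296 normalized counts. The depth in reads is unknown, and precision comes from the spread between mice. Differences between genotypes are log2 fold changes (log2FC) of the normalized count plus 1, fitted with limma over the 9 libraries and all 14239 genes. The third HET and the third KO libraries stood apart from the other 7 on the first principal component, which held 33.6% of the variance, so the values of the regulators and of the related genes are also given without them where they moved most. Markers of medium spiny neurons, the principal neurons of the striatum, were present in every library, and all 9 of them passed the filter. Their summed normalized count ranged from 74906 to 149130 in WT, from 103210 to 132490 in HET and from 65471 to 110720 in KO. Markers of cortical glutamatergic neurons, which are not striatal cells, were present as well, with 5 of 5 tested and a sum from 33237 to 53157 over the 9 libraries. In such bulk RNA, fewer cells of a type and less RNA per cell cannot be told apart.

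No difference between genotypes was detected for any of the 9 regulators. At a threshold of 0.05 on the limma p-value adjusted over all genes, 0 of 9 were called in HET against WT, KO against WT and KO against HET. The share of all genes called was 0.0% in each of these comparisons. At an unadjusted p under 0.05 the count was again 0 of 9 in each, where 1.11% of all genes passed in HET, 0.822% in KO and 1.31% in KO against HET. The median log2FC of the 9 genes was −0.04 in HET and 0.02 in KO, against −0.003 and 0.005 over all genes tested. In absolute size the median was 0.066 in HET and 0.048 in KO, with 0.088 and 0.079 over all genes. That no gene was called holds for this fit and does not show that no gene differed. The study, which used DESeq2 and an empirical null distribution, called genes in both HET and KO. Among those in KO was *Shank3*, which the study also found raised by qRT-PCR. In the fit used here *Shank3* had a log2FC of 0.54 in KO (adjusted p = 0.999, limma).

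**Figure D1:**
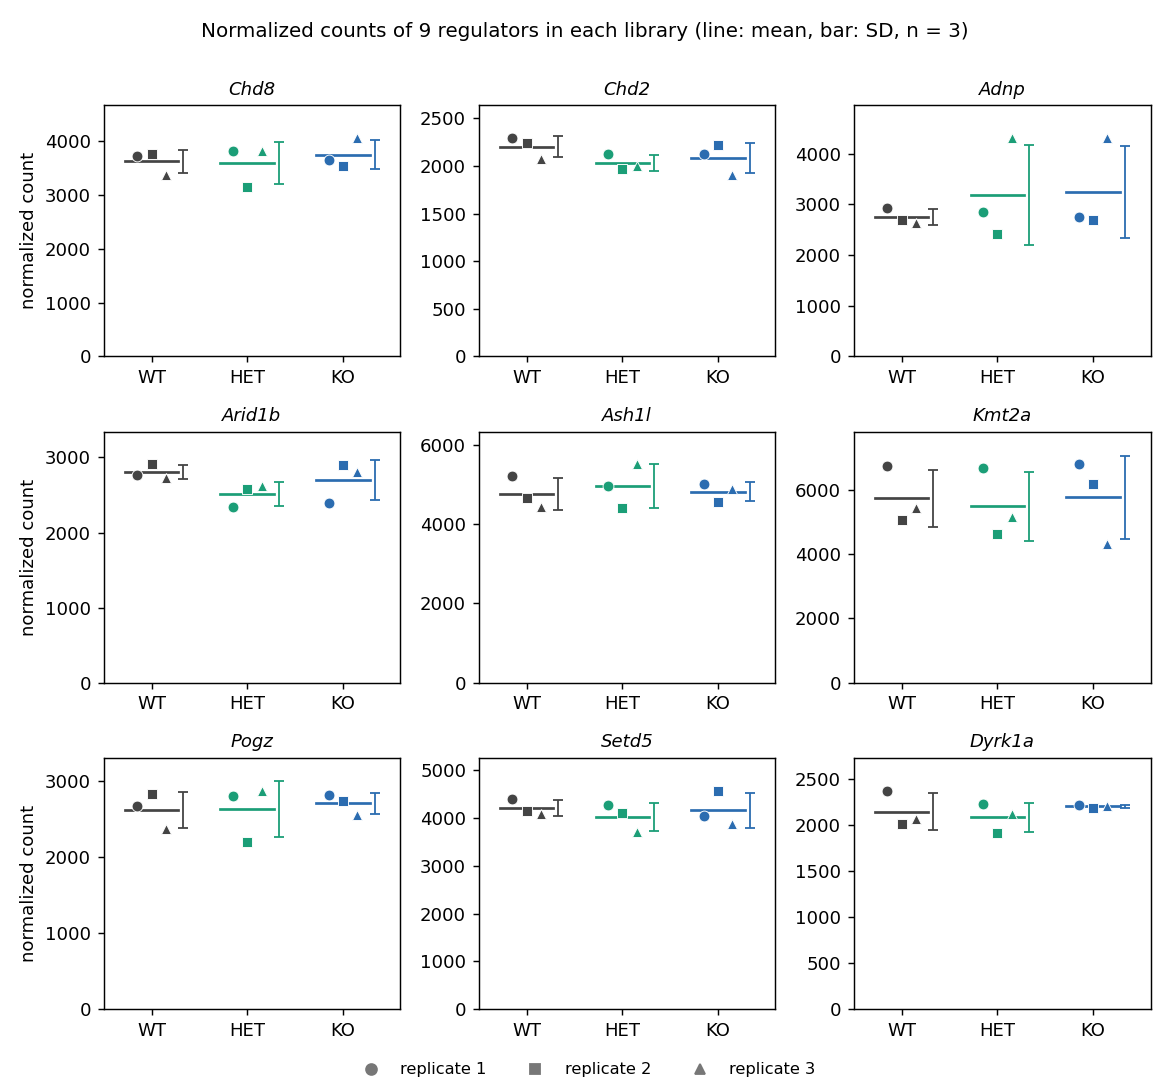
Each panel plots the normalized count of a regulator (y axis, from 0) by genotype (x axis), with a symbol for each library, a line at the mean and a bar for the SD of 3 mice. The libraries of the genotypes overlap in each panel except for *Arid1b*, whose HET libraries (2334 to 2626) lie below the WT libraries (2733 to 2907), and the third HET and KO libraries of *Adnp* are at 4304 and 4299.

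The remodellers come first. *Chd8* (ENSMUSG00000053754) is transcribed from the minus strand at chr14:52198151-52257780 of GRCm38. It had normalized counts of 3722, 3772 and 3380 in the WT libraries, 3827, 3144 and 3819 in the HET libraries and 3655, 3535 and 4057 in the KO libraries. The ranges of the 3 genotypes overlapped, and the lowest and highest values of the series were the second HET and the third KO library. The log2FC was −0.02 (SE 0.10) in HET and 0.05 (SE 0.10) in KO. The 95% interval in KO ran from −0.18 to 0.28, and that in HET from −0.25 to 0.22.

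*Chd2* (ENSMUSG00000078671) is transcribed from the minus strand at chr7:73426638-73541830. It had normalized counts of 2292, 2244 and 2079 in WT, 2130, 1967 and 1999 in HET and 2125, 2223 and 1907 in KO. Its libraries were tightly grouped, with a highest value 1.20 times the lowest, and the genotypes overlapped. The log2FC was −0.12 (SE 0.09, 95% interval −0.32 to 0.08) in HET and −0.08 (SE 0.09, −0.28 to 0.12) in KO. Without the third KO library the KO value was −0.02.

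*Arid1b* (ENSMUSG00000069729), a plus-strand gene at chr17:4994332-5347656, was the only regulator with genotypes that did not overlap. Its normalized count was 2761, 2907 and 2733 in the WT libraries and 2334, 2577 and 2626 in the HET libraries, and each HET library lay below each WT library. The log2FC was −0.16 (SE 0.10, 95% interval −0.37 to 0.06, adjusted p = 0.999, limma). The exact permutation p, two-sided, was 0.1, the smallest that 3 mice against 3 allow. Over all genes, HET and WT did not overlap for 4.45% (2.19% with HET lower and 2.25% with HET higher), against 1 of the 9 regulators. The gap was small, since the highest HET library and the lowest WT library were 2626 and 2733. The KO libraries had 2395, 2898 and 2804, 1 below the WT range and 2 within it, with a log2FC of −0.06 (SE 0.10). Among 22 other ways of running the fit, the smallest unadjusted p of any regulator was 0.072, for *Arid1b* in HET with array weights.

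The genes of the SET-domain proteins followed. *Kmt2a* (ENSMUSG00000002028) is transcribed from the minus strand at chr9:44803355-44881296. It had 6734, 5049 and 5424 normalized counts in WT, 6691, 4616 and 5159 in HET and 6791, 6182 and 4324 in KO. The first library of each genotype was the highest of its 3, at 6691 to 6791, and the third KO library was the lowest of the 9. The spread within a genotype, with an SD of 15.4% of the mean in WT, 19.6% in HET and 22.3% in KO, was far larger than the differences between the means of 5736, 5488 and 5765. The log2FC was −0.07 (SE 0.19) in HET and −0.01 (SE 0.19) in KO. The interval was correspondingly wide, from −0.44 to 0.42 in KO. Without the third KO library the KO value was 0.19, of opposite sign, and the HET value was 0.05 both without the first WT library and without the second HET library.

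*Ash1l* (ENSMUSG00000028053) is transcribed from the plus strand at chr3:88950622-89079375. Its WT libraries had normalized counts of 5214, 4667 and 4427, its HET libraries 4961, 4407 and 5513, and its KO libraries 5023, 4563 and 4902. The KO libraries lay within the WT range. The log2FC was 0.05 (SE 0.11) in HET and 0.02 (SE 0.11) in KO, and the HET value became −0.03 without the third HET library.

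*Setd5* (ENSMUSG00000034269) is transcribed from the plus strand at chr6:113077365-113153435. Normalized counts were 4412, 4146 and 4080 in WT, 4270, 4110 and 3709 in HET and 4046, 4573 and 3875 in KO. The third HET and the third KO libraries were the lowest of the 9. The log2FC was −0.07 (SE 0.09) in HET and −0.02 (SE 0.09) in KO, and without the third HET and the third KO libraries the values were −0.007 and 0.03.

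Of the HP1-binding proteins, *Adnp* varied most among the 9 genes. *Adnp* (ENSMUSG00000051149) is a minus-strand gene at chr2:168180986-168207112 and has 4 exons in its longest annotated transcript, fewer than any other of the 9 genes. It had 2929, 2681 and 2624 normalized counts in WT, 2848, 2419 and 4304 in HET and 2740, 2697 and 4299 in KO. The third HET and the third KO libraries were far above the rest, while the other 7 stayed between 2419 and 2929. The log2FC was 0.18 (SE 0.22, 95% interval −0.32 to 0.67) in HET and 0.21 (SE 0.22, −0.29 to 0.70) in KO. Without these 2 libraries it was −0.06 in HET and −0.01 in KO, of opposite sign.

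Many other genes stood apart in those libraries too. Both the third HET and the third KO library were above the other 7 in 19.2% of all genes and below them in 16.4%. Of the 9 regulators, *Adnp* was above and *Setd5* below. The mean of the 2 libraries exceeded that of the other 4 mutant libraries by a log2 difference of 0.69 for *Adnp*, whose absolute size lay at percentile 92.8 of all genes. For *Kmt2a* the difference was −0.35, and for the remaining 7 genes it ran from −0.16 for *Setd5* to 0.16 for *Chd8*. The GC content of the longest transcript was 48.1% for *Adnp*, with a median of 52.1% over the genes above, 47.9% over the genes below and 50.1% over all genes. Whether base composition has a part in these differences was not tested.

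*Pogz* (ENSMUSG00000038902) is transcribed from the plus strand at chr3:94837567-94882326. Its normalized counts were 2669, 2833 and 2369 in WT, 2808, 2203 and 2874 in HET and 2823, 2741 and 2557 in KO. The KO libraries fell inside the WT range, and the HET libraries spread past it on both sides. The log2FC was −0.003 (SE 0.12) in HET and 0.05 (SE 0.12) in KO.

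*Dyrk1a* (ENSMUSG00000022897), the kinase gene, is transcribed from the plus strand at chr16:94570010-94695517. It had 2368, 2003 and 2057 normalized counts in WT, 2220, 1912 and 2114 in HET and 2214, 2178 and 2202 in KO. The KO libraries differed from each other by an SD of 0.84% of their mean, and they lay inside the WT range. The log2FC was −0.04 (SE 0.09) in HET and 0.04 (SE 0.09) in KO, with a 95% interval in KO from −0.17 to 0.25.

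**Figure D2:**
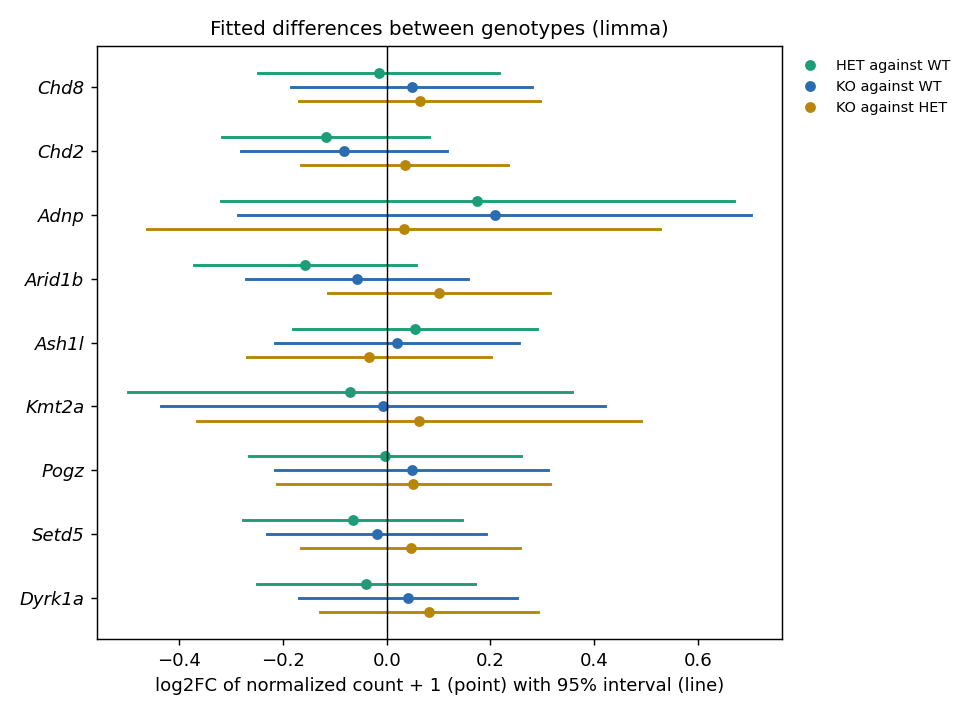
Points give the fitted log2FC of each regulator (x axis) for HET against WT, KO against WT and KO against HET, and lines the 95% interval from limma. Every interval crosses 0, and those of *Adnp* (−0.29 to 0.70 in KO) and *Kmt2a* (−0.44 to 0.42 in KO) are the widest.

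The intervals bound what these libraries could show. Over the 9 genes, the lowest bound was −0.50 in HET and −0.44 in KO, both for *Kmt2a*, and the highest was 0.67 and 0.70, both for *Adnp*. For the other 7 genes in KO the intervals stayed between −0.28 and 0.31. The median SE of the 9 genes was 0.10, against 0.15 over all genes, and 7 of the 9 regulators were below the latter, all but *Adnp* (0.22) and *Kmt2a* (0.19). In two-sided exact permutation tests, whose smallest p is 0.1, the KO comparison gave p from 0.4 for *Chd2* to 1 for *Kmt2a* (n = 3 mice each).

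Between KO and WT and between KO and HET, 0 of the 9 regulators had genotypes that did not overlap. Over all genes this held for 4.54% in KO against WT (2.02% higher, 2.51% lower) and for 4.45% in KO against HET (2.25% higher, 2.19% lower).

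Between KO and HET, 8 of 9 log2FC values were above 0 and 1 below, where 49.6% of all genes were above 0 and 50.4% below. They ran from −0.03 for *Ash1l* to 0.10 for *Arid1b*, with a median of 0.05 against −0.001 over all genes. In HET against WT, 2 of 9 were above 0 (49.3% of all genes) and 7 below (50.7%). In KO against WT, 5 of 9 were above 0 (51.6% of all genes) and 4 below (48.4%). These counts share libraries, since each genotype enters 2 of the 3 comparisons, and single libraries turned the sign of the medians. Without the second HET library the median log2FC was −0.03 between KO and HET and 0.05 in HET, and without the first WT library it was 0.01 in HET. In KO it was −0.006 without the second WT library and −0.03 without the third WT library. Whether replicate numbers pair the mice was not tested. A limma fit with the replicate number as a block gave 318 genes for KO against HET (unadjusted p under 0.05) in place of 186. Among them were 0 of the 9 regulators.

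The second HET library was low for the regulators as a group. All 9 genes were below their own 9-library mean in it, where 50.2% of all genes were, and 5 of 9 (*Chd8*, *Adnp*, *Ash1l*, *Pogz* and *Dyrk1a*) had their lowest value there, where 10.8% of all genes did. The median deviation of the 9 genes in that library was −0.16 on the log2 scale, against −0.001 for all genes. The third WT library was below the mean for 8 of 9 genes with a median of −0.05, and the first WT library above it for 8 of 9 with a median of 0.10. Differences of this size therefore separated mice of the same genotype.

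**Figure D3:**
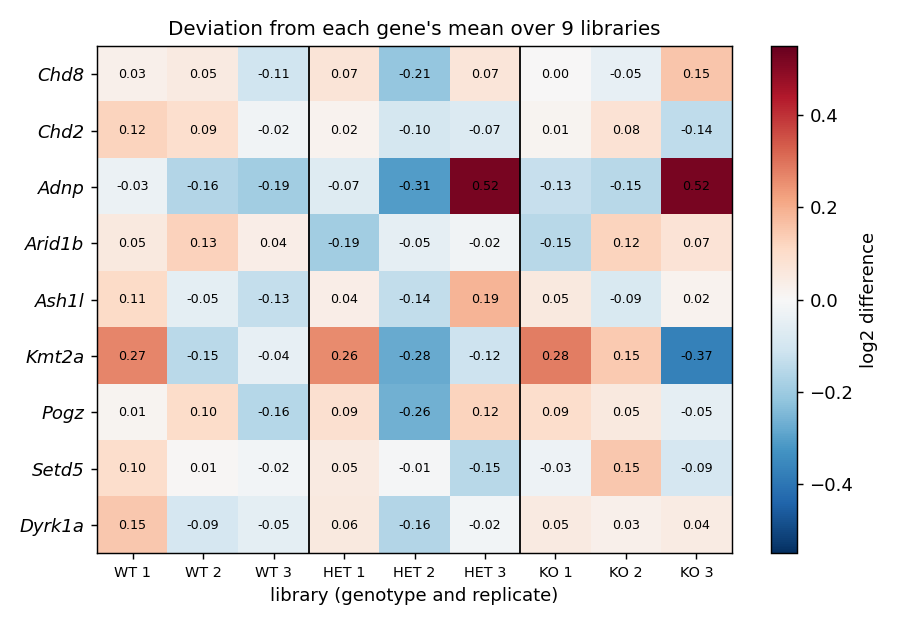
Colours and numbers give the log2 difference of each regulator (rows) in each library (columns) from its mean over the 9 libraries. The second HET library is below 0 in all 9 rows, and *Adnp* is 0.52 above its mean in both the third HET and the third KO library.

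Several regulators varied together from mouse to mouse. Over the 9 libraries the 36 pairs had a median Pearson r of 0.29 (from −0.67 to 0.75), and 12 pairs (33.3%) had an r above 0.5. Over all pairs of tested genes the median was −0.001, and 16.4% of pairs had an r above 0.5. The values come from the same 9 libraries, share their normalization, and are a description. How far they rest on the second HET library, where all 9 genes were below their own mean, was not tested. *Chd8* varied with *Adnp*, *Pogz* and *Ash1l*, with an r of 0.73 between *Chd8* and *Adnp*, 0.72 between *Chd8* and *Pogz* and 0.68 between *Chd8* and *Ash1l*. *Chd2* varied with *Setd5* and *Kmt2a* instead, with an r of 0.75 between *Chd2* and *Setd5* and 0.71 between *Chd2* and *Kmt2a*. *Adnp* and *Setd5* varied in opposite directions, with an r of −0.67, and *Arid1b* followed none of the others above an r of 0.21.

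The groups were less apart without the third HET and the third KO libraries. Over the other 7 libraries the median r was 0.63, and 23 of 36 pairs (63.9%) were above 0.5, against 15.5% of all pairs of genes. *Chd8* and *Pogz* then had an r of 0.93, *Kmt2a* and *Dyrk1a* 0.95 and *Adnp* and *Dyrk1a* 0.92, while *Adnp* and *Setd5* had 0.45. All 6 pairs with an r below 0 included *Arid1b*. With the genotype means removed, the median over the 9 libraries was 0.31, with 13 of 36 pairs above 0.5 (19.9% of all pairs of genes).

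**Figure D4:**
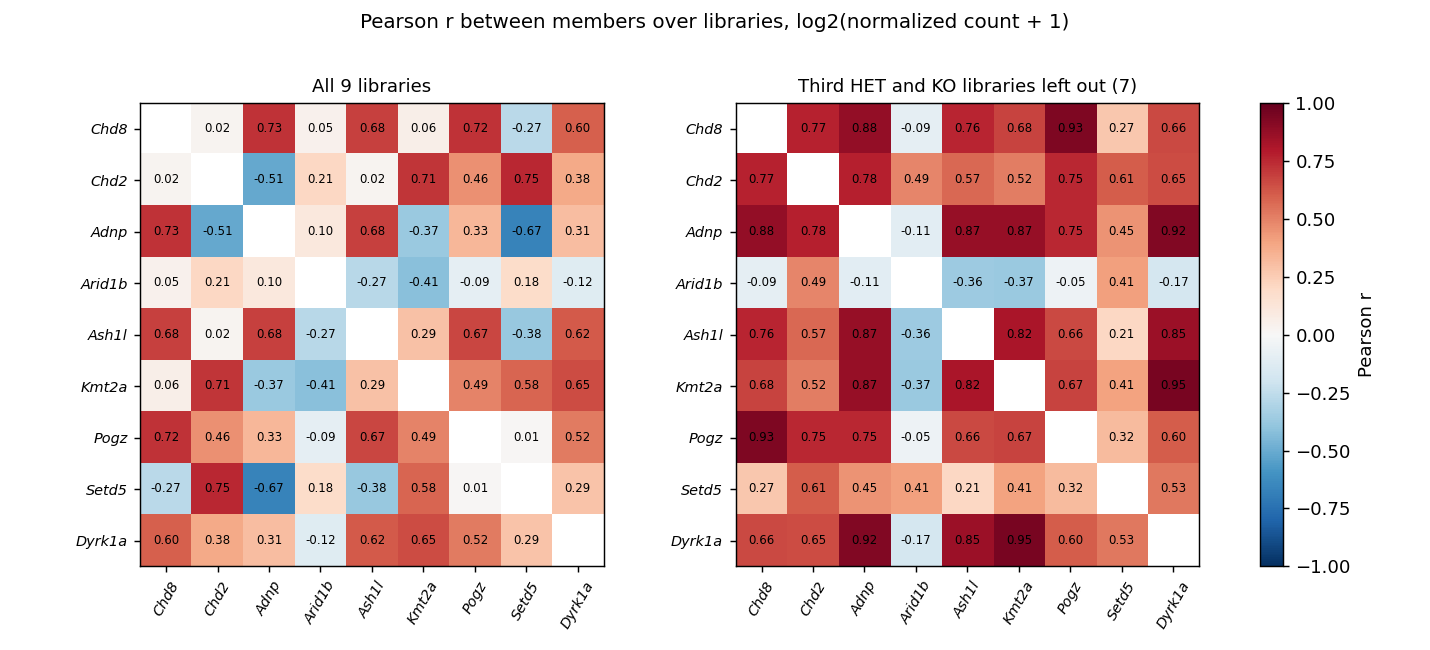
Colours and numbers give the Pearson r of log2 values between each pair of regulators over the 9 libraries (left) and over 7 libraries with the third HET and the third KO libraries left out (right). Median r is 0.29 on the left and 0.63 on the right, and the pairs below 0 on the right all hold *Arid1b*.

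The promoters of *Adnp*, *Chd8*, *Pogz* and *Kmt2a* are printed to show the sequence in front of each start. They were chosen because their windows could be shown, and not by the r between the genes. That r was 0.67 to 0.93 over the 7 libraries. With other regulators it was as high for some (0.95 between *Kmt2a* and *Dyrk1a*) and below 0 for others (−0.37 between *Kmt2a* and *Arid1b*). Over all 9 libraries the r was −0.37 between *Adnp* and *Kmt2a*, 0.06 between *Chd8* and *Kmt2a* and 0.33 between *Adnp* and *Pogz*. The RefSeq promoter table of GRCm38.p6 held 7 of the 9 genes, all but *Chd2* and *Ash1l*. The windows of *Arid1b* and *Dyrk1a* at the gene start overlap annotated exons. That of *Setd5* and another of *Dyrk1a* (chr16:94611169-94611398) lie within the gene, so none of these is shown. Shown are 230 bases that end before the RefSeq start and overlap no annotated exon, 5′ to 3′ on the strand of the gene, with searched motifs in capitals. The windows are chr14:52257781-52258010 (minus strand) for *Chd8*, chr3:94837187-94837416 (plus) for *Pogz*, chr2:168207133-168207362 (minus) for *Adnp* and chr9:44881310-44881539 (minus) for *Kmt2a*.
Chd8: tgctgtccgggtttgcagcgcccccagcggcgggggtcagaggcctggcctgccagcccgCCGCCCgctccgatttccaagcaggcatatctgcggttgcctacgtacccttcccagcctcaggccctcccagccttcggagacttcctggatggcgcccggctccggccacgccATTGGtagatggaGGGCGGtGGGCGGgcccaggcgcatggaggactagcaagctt
Pogz: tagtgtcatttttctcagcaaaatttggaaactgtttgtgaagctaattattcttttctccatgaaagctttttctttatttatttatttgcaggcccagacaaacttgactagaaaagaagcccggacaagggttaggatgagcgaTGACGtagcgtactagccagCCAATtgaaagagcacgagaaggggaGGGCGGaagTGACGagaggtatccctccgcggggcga
Adnp: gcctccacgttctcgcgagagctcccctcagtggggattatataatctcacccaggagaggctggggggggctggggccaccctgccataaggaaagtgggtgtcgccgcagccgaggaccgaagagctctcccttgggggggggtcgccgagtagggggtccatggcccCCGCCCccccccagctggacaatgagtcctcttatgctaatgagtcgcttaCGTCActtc
Kmt2a: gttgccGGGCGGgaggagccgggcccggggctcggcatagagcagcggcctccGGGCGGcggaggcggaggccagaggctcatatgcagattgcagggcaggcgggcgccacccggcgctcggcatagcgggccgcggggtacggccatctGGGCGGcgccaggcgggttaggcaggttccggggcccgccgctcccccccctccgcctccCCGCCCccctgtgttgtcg

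The 4 windows shown held 18 CpG dinucleotides, the sites of DNA methylation, in *Chd8*, 10 in *Pogz*, 12 in *Adnp* and 28 in *Kmt2a*. The median was 5 over 32851 windows of the same length, which were not selected by exon overlap or by place in the gene. Of the windows not shown, that of *Setd5* held 0 and that of *Dyrk1a* within the gene 2. Those that overlap exons held 34 in *Arid1b* and 40 and 24 in *Dyrk1a*. Motifs were searched on both strands. The GC box (GGGCGG), bound by Sp-family factors, occurred 3 times in *Chd8*, 4 times in *Kmt2a* and 1 time each in *Pogz* and *Adnp*, and was held by 29.8% of all windows. The CCAAT box (CCAAT) occurred 1 time each in *Chd8* and *Pogz* (32.2% of all windows). The half-site of the cAMP response element (TGACG) occurred 2 times in *Pogz* and 1 time in *Adnp* (15.9% of all windows). The letters CCGGAAG (ETS core), TGCGCA (NRF1 core) and CACGTG (E-box) were found in none of these 4 windows, and in 5.56%, 5.63% and 5.35% of all windows.

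Levels of different genes were compared per length, as normalized counts per kilobase of annotated exon, since a longer mRNA gives more reads. The means over the 9 libraries were 572 ± 134 (SD, n = 9) for *Adnp*, 340 ± 57.4 for *Kmt2a*, 327 ± 25.1 for *Ash1l*, 288 ± 25.3 for *Pogz*, 259 ± 16.5 for *Dyrk1a*, 225 ± 14.3 for *Setd5*, 221 ± 16.4 for *Chd8*, 212 ± 16.3 for *Arid1b* and 147 ± 9.23 for *Chd2*. *Adnp* and *Chd2* stood at the ends of this order. *Kmt2a* and *Ash1l* differed by less than the SD of *Kmt2a*, and *Setd5*, *Chd8* and *Arid1b* lay within 1 SD of each other. Among all genes these levels ranged from percentile 47.4 for *Chd2* to percentile 81.8 for *Adnp*. The middle of the order depended on the length used. With the longest annotated transcript in place of all exons, *Setd5* moved from rank 6 to rank 2, *Chd8* from rank 7 to rank 3 and *Kmt2a* from rank 2 to rank 7, while *Adnp* stayed at 1, *Arid1b* at 8 and *Chd2* at 9.

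Genes of the same families and complexes were read in the same way. Of 114 genes in 8 related lists, 112 passed the filter (*Dyrk4* and *Hipk4* did not), and 0 had an adjusted limma p under 0.05 in any comparison. At an unadjusted p under 0.05, 1 gene was lower in HET (1.11% of all genes tested were called), 0 were called in KO and 1 was higher in KO than in HET. The median log2FC of the 112 genes was −0.03 in HET and 0.002 in KO. In HET 69 of 112 were below 0 (50.7% of all genes), and in KO 53 of 112 (48.4% of all genes). With the third HET and the third KO libraries left out, the count at an unadjusted p under 0.05 was 4 in HET (*Crebbp*, *Dpf1*, *Mbd5* and *Setbp1*), 2 in KO (*Chd7* and *Dpf1*) and 3 in KO against HET (*Kdm6b*, *Kmt2c* and *Setbp1*), where 1.93%, 1.54% and 1.59% of all genes passed, and 0 passed the adjusted threshold. List medians then ran from −0.11 to −0.01 in HET and from −0.02 to 0.04 in KO, and some changed sign.

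In both comparisons the gene was *Setbp1*, whose product binds the SET protein and which is in the list of other autism-linked regulators. Its normalized counts were 1090, 1051 and 1182 in WT, 908, 905 and 825 in HET and 997, 1209 and 1124 in KO. The HET libraries lay below those of both other genotypes. Over all genes, HET was lower than WT without overlap for 2.19%, and KO higher than HET for 2.25%. The log2FC of *Setbp1* was −0.33 (SE 0.10, unadjusted p = 0.0085 and adjusted p = 0.999, limma) in HET, and −0.29 without the third HET library. In that list of 27 genes, 22 were below 0 in HET (50.7% of all genes) with a median log2FC of −0.07. In KO 18 were below 0 (48.4% of all genes) with a median of −0.02. Without the third HET and the third KO libraries these medians were −0.11 in HET and 0.03 in KO. The smallest unadjusted p of the list in KO belonged to *Phf21a*, a reader of unmethylated H3K4. It had 1833, 1646 and 1555 normalized counts in WT and 1498, 1554 and 1360 in KO. The KO libraries of *Phf21a* lay below the WT libraries, as held for 2.51% of all genes. Its log2FC was −0.19 (SE 0.11), and −0.13 without the third KO library. *Setbp1* and *Phf21a* were picked for the smallest p of their list, so a lack of overlap follows in part from the choice.

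Among the 7 other CHD remodellers the median log2FC was −0.08 in HET and 0.09 in KO. *Chd7*, the gene of CHARGE syndrome and a member of the same subfamily as *Chd8*, had the largest difference in KO, with 570, 387 and 585 normalized counts in WT and 679, 821 and 473 in KO. The ranges overlapped, and the log2FC was 0.34 (SE 0.22), or 0.56 without the third KO library. *Chd1* had the smallest p of the list in HET, with a log2FC of −0.27 (SE 0.21), which was −0.04 without the third HET library.

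The 27 BAF subunits had medians of −0.04 in HET and −0.01 in KO. *Smarce1* had the smallest p in HET, with 1265, 1351 and 1471 normalized counts in WT and 1391, 1479 and 2365 in HET, of which the third HET library was far the highest, and its log2FC was 0.32 (SE 0.20), or 0.08 without that library. *Ss18* had the smallest in KO, where all 3 libraries (1029, 1061 and 1027) lay above the WT libraries (961, 884 and 1001), with a log2FC of 0.13 (SE 0.09). Over all genes, KO lay above WT without overlap for 2.02%, and *Ss18* was picked for its p.

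The 16 genes of the H3K4 methyltransferase complexes had medians of −0.03 in HET and 0.03 in KO. The smallest p belonged to *Setd1a* in HET (log2FC −0.20, SE 0.14, and −0.05 without the third HET library) and to *Ash2l*, a core subunit, in KO (log2FC −0.09, SE 0.09). Among 8 genes of H3K36 methylation the medians were −0.04 and 0.002. The smallest p belonged to the demethylase genes *Kdm2b* in HET (log2FC 0.43, SE 0.34) and *Kdm2a* in KO (log2FC 0.20, SE 0.17). *Kdm2b* had 1428 and 1105 normalized counts in the third HET and the third KO libraries and 514 to 649 in the other 7, and without these libraries the log2FC was −0.01 for *Kdm2b* in HET and 0.07 for *Kdm2a* in KO.

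The 6 genes of the NCoR-HDAC3 complex had medians of 0.03 in HET and 0.03 in KO, with the smallest p for *Gps2* in HET (log2FC −0.13, SE 0.10) and for *Hdac3* itself in KO (log2FC 0.05, SE 0.08). The 10 HP1 genes and partners had medians of −0.01 and 0.02. *Cbx5*, which encodes HP1 alpha, had the smallest p in HET (log2FC −0.15, SE 0.09), and *Hdgfl2* in KO (log2FC −0.13, SE 0.11). The 11 genes tested in the list of kinases related to *Dyrk1a*, which also holds *Dcaf7*, had medians of 0.02 and 0.06. *Dyrk1b* had the smallest p in HET (log2FC −0.25, SE 0.15) and *Hipk3* in KO (log2FC 0.10, SE 0.12). Without the third HET and the third KO libraries these values were −0.11 for *Dyrk1b* and −0.003 for *Hipk3*, and those of the genes above were −0.07 for *Gps2*, 0.02 for *Hdac3*, −0.13 for *Cbx5* and −0.07 for *Hdgfl2*.

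**Figure D5:**
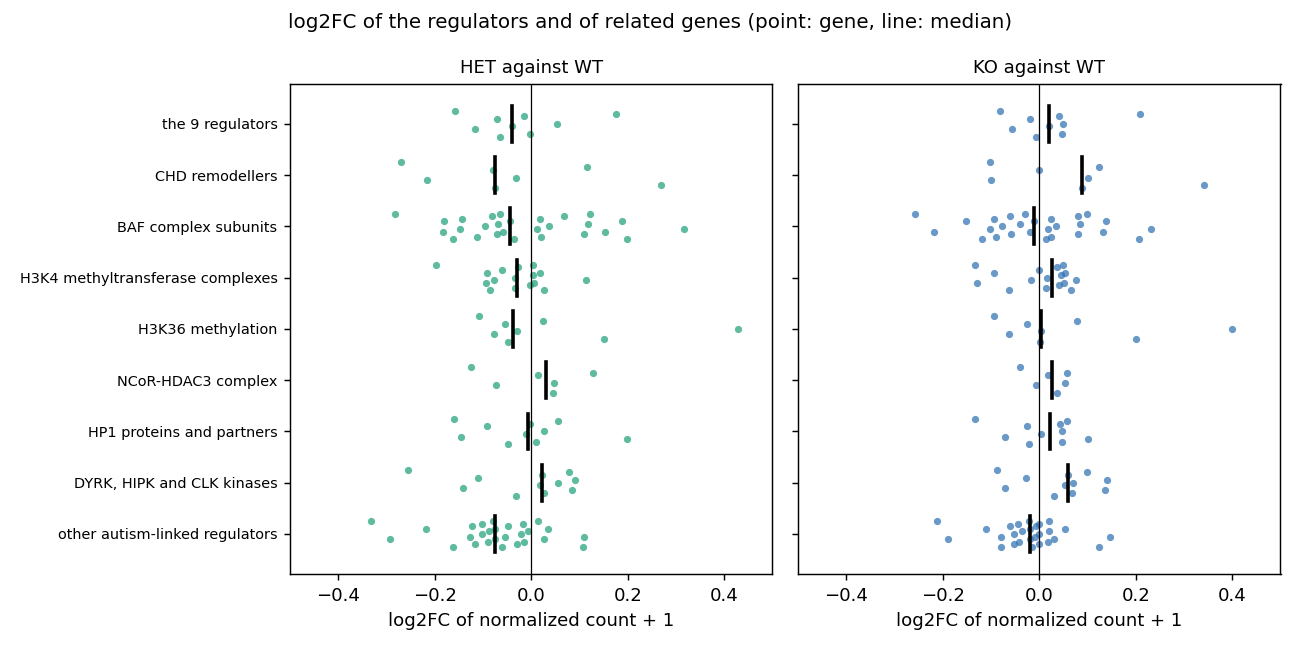
Points give the log2FC of single genes (x axis) in HET against WT (left) and KO against WT (right) for the 9 regulators and 8 related lists, and black lines the median of each list. List medians lie between −0.08 and 0.03 in HET and between −0.02 and 0.09 in KO, and no point passed the adjusted threshold.

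The third HET and the third KO libraries stood above the other 7 in 28 of the 112 related genes (19.2% of all genes) and below them in 22 (16.4% of all genes). *Chd4*, the remodeller with which ADNP and HP1 form a complex, was among those above, and had 9276 and 8389 normalized counts in these libraries and at most 7275 in the others. *Ehmt2*, a methyltransferase for histone H3 lysine 9, had 13754 and 10810, against 6061 to 8495 in the others. *Smarca2*, an ATPase of the BAF complex, had 10869 and 10896, against 6016 to 7784. *Chd4*, *Ehmt2* and *Smarca2* were named from the genes above, and their lists held as many or more genes below. Of the 7 CHD remodellers 1 was above and 3 were below. Of the 27 BAF subunits 5 were above and 5 below, and of the 10 HP1 genes and partners 3 were above and 3 below. None of the HP1 genes *Cbx1*, *Cbx3* and *Cbx5* was among the genes above. Other lists held more genes above than below. These were the NCoR-HDAC3 complex (4 above and 1 below), the kinases (4 and 1) and the H3K4 methyltransferase complexes (4 and 2). The counts were equal for H3K36 methylation (3 and 3) and for the other autism-linked regulators (4 and 4).

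The mean of the standardized log2 values of the 9 regulators was lowest in the second HET library (−1.18) and highest in the first WT library (0.76). Among the genes whose log2 values had the highest Pearson r with this mean over the 9 libraries were *Zcchc14* (0.96), *Ep300* (0.95), *Shc2* (0.94), *Zfp84* (0.94), *Kcnn3* (0.94), *Dok6* (0.93) and *Prrc2c* (0.93). They were picked for this r among all genes tested other than the 9 regulators, so that high values follow from the choice. *Ep300*, a histone acetyltransferase gene, had 3133, 2496 and 2444 normalized counts in WT, 2802, 2130 and 2859 in HET and 2796, 2783 and 2737 in KO. It was lowest in the second HET library and highest in the first WT library. Of the regulators themselves, *Dyrk1a* (0.85) and *Pogz* (0.82) followed the mean most closely and *Arid1b* (0.13) least. Each regulator is itself part of this mean, which raises its r.

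Cell type markers moved with the regulators to differing degrees, and their part in these values was not tested. The Pearson r over the 9 libraries between the regulators' mean and the mean of the standardized markers, a description over 9 points that share their normalization, was −0.73 for astrocytes, −0.65 for cortical glutamatergic neurons, −0.51 for endothelial cells, −0.42 for choroid plexus, −0.40 for oligodendrocytes, −0.35 for thalamic and septal neurons, −0.34 for microglia and 0.41 for medium spiny neurons. The summed astrocyte markers, 5 of 5 tested, ranged from 103730 to 120830 normalized counts in WT, from 105430 to 115180 in HET and from 106560 to 115590 in KO. The summed oligodendrocyte markers ranged from 148120 to 243580 in WT, from 208180 to 236320 in HET and from 126620 to 228450 in KO. In the second HET library, where the regulators were low, the oligodendrocyte sum was 236320 and the cortical sum 46667, the highest of the 3 HET libraries for both. The astrocyte sum of 105430 and the medium spiny neuron sum of 103210 were the lowest of the 3, and the thalamic and septal sum of 1487 lay between the others. The sums for microglia (6183.5), endothelial cells (4321) and choroid plexus (291) were the highest of the 9 libraries. The choroid plexus sum was 136 to 291 over the 9 libraries, with *Ttr*, the transthyretin gene, listed at 0 in some libraries.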

How the data were processed

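Striatal RNA of 9 mice was sequenced after a stranded mRNA library preparation. The deposited values are a signal: the authors estimated reads with Salmon 0.9.1 (GRCm38, GC bias correction), summed them by gene with tximport and divided them by DESeq2 1.19.11 size factors in R 3.6.0, per the submitters' processing notes and the methods. Low values are not multiples of a common step, so whole reads were not recovered and no count test was run. Samples were grouped by their titles, and 0 columns were left unused.

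Values were transformed as log2(normalized count + 1), and genes reaching 10 in 3 or more libraries entered a fit in limma 3.58.1 (R 4.3.3) on the 9 libraries together, with genotype as the sole term and a mean-dependent prior variance. The Benjamini-Hochberg adjustment was used, with a threshold of 0.05. The fit was tried on simulated data with independent noise and a log2 shift far larger than those of the regulators. That trial does not show how well the fit finds smaller shifts, or how it fares where libraries stand apart together. Symbols were found for 15457 genes and not for 7, and coordinates, exon lengths and GC content come from GENCODE M21 (GRCm38). Promoters come from RefSeq (GRCm38.p6), of which 32851 windows were searched. Protein sequences were not analysed here. Figures were drawn with matplotlib 3.10.9.

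The 9 genes, the related lists and the markers were chosen with earlier results of these data known. The named genes were all 9 genes, *Shank3*, in each related list the gene of the smallest unadjusted p in HET and in KO, and the 8 genes most like the mean of the 9, of which 1 is not reported here. *Chd4*, *Ehmt2*, *Smarca2*, *Cbx1*, *Cbx3*, *Crebbp*, *Dpf1*, *Mbd5*, *Kdm6b* and *Kmt2c* were named after their values were seen. Of 2 endothelial markers (*Ly6c1* and *Slco1a4*) no row was found, and 3 of the 5 were used. Deviations from the genotype means were correlated between libraries of the same replicate number. For libraries 1, 2 and 3, the r was 0.515, 0.281 and 0.506 between HET and KO, 0.243, −0.221 and 0.024 between KO and WT, and 0.319, −0.014 and 0.005 between HET and WT. Between HET and KO the r was above 0 for each number, but no r was computed between libraries of different numbers. The third HET and KO libraries stood apart together and also enter the deviations of libraries 1 and 2. Whether the numbers pair the mice was therefore not tested. The methods speak of littermates and of 3 sets of RNA samples, without tying a replicate number to a litter or a set.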

Additional observations from a re-analysis of the deposited data

How the results depend on the processing

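Over 22 other settings, 594 values of the regulators' log2FC were computed, of which 0 passed the adjusted threshold and 0 had an unadjusted p under 0.05. The number of genes called stayed at 0 in the 3 comparisons, also for the 9 regulators. The sign was the same for 546 values and opposite for 48, of which 37 came from fits that left out 1 library. In those fits the median log2FC of the regulators ran from −0.088 to 0.046 in HET, from −0.032 to 0.068 in KO and from −0.031 to 0.093 between KO and HET. The sign was opposite without the second HET library in HET (0.046) and between KO and HET (−0.031), without the first WT library in HET (0.011), and without the second (−0.0062) or the third WT library (−0.032) in KO.

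With 1 library left out at a time, the log2FC in HET ran from −0.065 to 0.079 for *Chd8*, −0.16 to −0.089 for *Chd2*, −0.19 to −0.11 for *Arid1b*, −0.025 to 0.14 for *Ash1l*, −0.22 to 0.051 for *Kmt2a*, −0.11 to −0.0072 for *Setd5*, −0.063 to 0.35 for *Adnp*, −0.075 to 0.12 for *Pogz* and −0.088 to 0.034 for *Dyrk1a*. The range in KO was −0.01 to 0.089 for *Chd8*, −0.13 to −0.02 for *Chd2*, −0.11 to 0.026 for *Arid1b*, −0.032 to 0.086 for *Ash1l*, −0.14 to 0.19 for *Kmt2a*, −0.088 to 0.031 for *Setd5*, −0.012 to 0.32 for *Adnp*, −0.024 to 0.11 for *Pogz* and −0.0062 to 0.11 for *Dyrk1a*. The range between KO and HET was −0.031 to 0.11 for *Chd8*, −0.013 to 0.098 for *Chd2*, 0.047 to 0.18 for *Arid1b*, −0.12 to 0.045 for *Ash1l*, −0.068 to 0.26 for *Kmt2a*, −0.023 to 0.097 for *Setd5*, −0.19 to 0.27 for *Adnp*, −0.071 to 0.12 for *Pogz* and 0.021 to 0.13 for *Dyrk1a*.

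With array weights the log2FC of *Kmt2a* was 0.0031 in HET and 0.16 in KO, that of *Chd8* −0.0082 in KO and that of *Setd5* 0.023 in KO. With the third HET and the third KO libraries both left out, it was −0.063 for *Adnp* and −0.025 for *Ash1l* in HET, −0.010 for *Chd8*, −0.012 for *Adnp*, 0.19 for *Kmt2a* and 0.031 for *Setd5* in KO, and 0.034 for *Ash1l* between KO and HET. In the same setting, added for the related genes after seeing the data, *Kdm2b* in HET was −0.011 and *Hipk3* in KO −0.0028. The cause was not tested. A replicate block gave 365 genes at an unadjusted p under 0.05 in HET, 310 in KO and 318 for KO against HET, and changed no adjusted call. DESeq2 was not run, since the table holds no whole counts. Depth in reads is unknown, and with 3 mice per genotype differences under the intervals given could not be resolved.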
